A study of Homo sapiens with 20 samples.

Results

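The regions described here are HIF1A binding sites called in hypoxic H460 lung carcinoma cells that were called in none of the other 3 cell lines of the study and that lie far from any gene start. HIF1A is the oxygen-regulated subunit of hypoxia-inducible factor 1. Its binding to DNA was measured by ChIP-seq, in which DNA fragments recovered with an antibody to a protein are sequenced, and a stretch with more fragments than the input DNA and its surroundings is called a peak. A peak of the H460 hypoxia list was a member when the region it formed with overlapping hypoxia peaks, at 1 bp or more, held no peak of HCT116, RKO or A549, and when its centre lay more than 2500 bp from the start of every protein-coding or lncRNA gene. These conditions gave 1503 members of the 3877 H460 hypoxia peaks (38.8%), out of 22452 hypoxia peaks over the 4 lists. Members were thus chosen by the peak calls of the hypoxia lists, so their tag counts are given as a description and without a test.

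The study grew H460 and A549 cells (lung carcinoma) and HCT116 and RKO cells (colon carcinoma) and exposed them to hypoxia (1% O2) or normoxia for 24 h. Each line and condition had 2 ChIP replicates, and each line had 1 input library of genomic DNA. The authors merged both replicates and then called peaks, so each value given here comes from 1 merged library and carries no replicate error. Peaks of 1 library are not replicates of a condition, and tests over peaks speak of the sequences under them. The merged libraries held 41.2 M to 81.5 M tags (mapped reads, M for 1000000), and H460 hypoxia held 49.5 M. A fold over input of at least 14 was required in the H460 list, against 13 in A549, 7 in HCT116 and 6 in RKO, and H460 lysates were sonicated for fewer cycles than the others. "H460-only" therefore means called in H460 and not called elsewhere at these thresholds.

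In normoxia, HIF1A is hydroxylated by oxygen-dependent prolyl hydroxylases and degraded. In hypoxia it is stabilised, pairs with ARNT and binds the hypoxia response element (HRE), whose core reads ACGTG or GCGTG. Sites far from gene starts can act as enhancers, and which of them are open to a factor differs between cell types. AP-1 (FOS and JUN dimers) and forkhead factors are among the proteins known to occupy such enhancers in epithelial cells.

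The HRE core is the element that most of the values below turn on, and it is shown first in members that hold 2 or more copies. Windows of 200 bp at the peak centre are printed for 5 members, 4 of them among the 6 strongest, from the GRCh37 plus strand and read 5′ to 3′, with every HRE core on either strand in capitals (a core on the other strand reads CACGT or CACGC). They are NDUFA4L2 (chr12:57628881-57629080), ADSS1 (chr14:105202665-105202864), PRELID3B (chr20:57638844-57639043), CHL1 (chr3:285927-286126) and the SLC2A3 member (chr12:8142703-8142902), each named by its nearest protein-coding gene. The other 2 of those 6, with 1 core each, are not printed, and 39.7% of all members held 1 core and 38.7% none.
NDUFA4L2: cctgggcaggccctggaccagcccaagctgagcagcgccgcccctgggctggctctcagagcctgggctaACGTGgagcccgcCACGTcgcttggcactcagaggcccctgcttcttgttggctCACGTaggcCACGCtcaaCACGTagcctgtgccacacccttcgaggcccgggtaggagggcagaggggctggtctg
ADSS1: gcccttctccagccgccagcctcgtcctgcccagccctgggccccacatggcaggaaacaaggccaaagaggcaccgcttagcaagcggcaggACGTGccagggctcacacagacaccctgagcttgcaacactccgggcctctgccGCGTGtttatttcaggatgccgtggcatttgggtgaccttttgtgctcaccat
PRELID3B: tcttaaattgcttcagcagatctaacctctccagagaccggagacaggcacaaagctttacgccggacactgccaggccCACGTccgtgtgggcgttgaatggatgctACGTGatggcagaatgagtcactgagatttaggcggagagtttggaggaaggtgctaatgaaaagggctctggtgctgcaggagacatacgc
CHL1: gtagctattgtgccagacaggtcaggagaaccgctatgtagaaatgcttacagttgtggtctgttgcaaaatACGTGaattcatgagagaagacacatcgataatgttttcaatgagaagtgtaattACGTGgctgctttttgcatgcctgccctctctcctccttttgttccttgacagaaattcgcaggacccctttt
SLC2A3: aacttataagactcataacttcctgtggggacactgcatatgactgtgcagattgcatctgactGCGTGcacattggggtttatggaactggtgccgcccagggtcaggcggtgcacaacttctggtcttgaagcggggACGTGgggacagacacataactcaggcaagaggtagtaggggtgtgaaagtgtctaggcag

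Windows with extreme or absent motifs are shown for contrast. SBNO2 (chr19:1169991-1170190) held more HRE cores than any other member. COPS8 (chr2:237784482-237784681) is shown with the AP-1 motif, TGACTCA or its reverse complement, in capitals. DHX8 (chr17:41535527-41535726) is the strongest member without an HRE core and was picked after its values were seen. Its window holds long runs of repeated GT and GA, and no input tag lay under its peak. MET (chr7:116346759-116346958) holds no HRE core either.
SBNO2: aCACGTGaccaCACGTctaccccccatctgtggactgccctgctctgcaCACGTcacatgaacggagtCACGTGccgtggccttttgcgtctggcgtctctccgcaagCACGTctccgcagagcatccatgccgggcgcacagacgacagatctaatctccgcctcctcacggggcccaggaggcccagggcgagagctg
COPS8: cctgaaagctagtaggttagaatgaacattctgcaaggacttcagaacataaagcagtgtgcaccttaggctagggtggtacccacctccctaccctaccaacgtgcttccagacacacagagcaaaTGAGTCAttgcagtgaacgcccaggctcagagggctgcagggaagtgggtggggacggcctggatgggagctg
DHX8: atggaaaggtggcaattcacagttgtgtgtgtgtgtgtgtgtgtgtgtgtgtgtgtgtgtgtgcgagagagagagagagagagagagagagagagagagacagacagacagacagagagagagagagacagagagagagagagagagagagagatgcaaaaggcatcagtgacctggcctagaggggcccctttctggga
MET: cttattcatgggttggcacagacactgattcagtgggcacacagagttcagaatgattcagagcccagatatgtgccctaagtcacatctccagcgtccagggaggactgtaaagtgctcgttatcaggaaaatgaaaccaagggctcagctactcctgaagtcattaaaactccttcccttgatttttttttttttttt

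The signal of a peak is its normalized tag count, that is, its tags per 10 M tags of the library. The median member had 5.26 tags per 10 M, with the middle of the distribution from 3.84 to 7.68 and extremes of 2.63 and 179.3. In unscaled reads the median member rested on 26 tags, with an exact Poisson 95% interval of 17.0 to 38.1 that covers counting error only. Most members were thus weak peaks: 251 (16.7%) reached 10 tags per 10 M and 20 reached 30. H460 peaks equally far from gene starts but in regions shared with another line (n = 464) had a median of 13.1, the H460-only peaks near a gene start (n = 1023) had 5.46, and A549-only peaks far from gene starts (n = 3371) had 3.65 in their own library. No input tag was found under 873 members (58.1%).

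NDUFA4L2, a mitochondrial protein induced by HIF1A that lowers complex I activity, had the strongest member, with 179.3 tags per 10 M and 88.2-fold over input. Its peak (chr12:57628908-57629054) lay in an exon 5517 bp downstream of the start of the NDUFA4L2 gene record, 1564 bp from the start of one of its annotated transcripts, and it held 5 HRE cores. A weaker H460-only peak of 10.9 lay at the gene start itself. The second member, at 98.5, lay in an intron of ADSS1, which encodes the muscle-type adenylosuccinate synthase of purine synthesis, 12254 bp inside the gene and 715 bp from a transcript start. CYP1B1, a cytochrome P450 that oxidises oestrogens and xenobiotics, held the third in an intron, at 79.3. PRELID3B, of a family of mitochondrial lipid transfer proteins, was nearest to the next, an intergenic peak of 55.2 at a distance of 21080 bp. The fifth, at 52.6, lay in an intron of STEAP1B, 22526 bp upstream of the start of IL6, the gene of an inflammatory cytokine.

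The other 10 of the 15 strongest members ran from 48.1 down to 32.1. CHL1, a neural cell adhesion molecule, held the highest of these in an intron. Beyond it came an intergenic site nearest to CLINT1 (42.9), a clathrin adaptor, an exon of an lncRNA nearest to TOB1 (41.5), an antiproliferative protein, an lncRNA intron nearest to TSN (38.6), which encodes translin, and an intergenic site 4549 bp upstream of KCNE4 (37), a potassium channel subunit. Coding exons carried 2 of the 15: one of SLC8A2, a sodium-calcium exchanger (35.6, nearest to MEIS3), and one of ZMIZ1, a transcriptional coregulator (33.6, nearest to PPIF). The remaining members were nearest to COPS8 (33.8), a COP9 signalosome subunit, PDCD6 (32.8), a calcium-binding protein, and OCRL (32.1), an inositol phosphatase, where the peak was intronic. All 15 windows held at least 1 HRE core. Going down the ranks, the core was present in 49 of the 50 strongest members (98%), 94 of the 100 strongest (94%) and 402 of the 500 strongest (80.4%).

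**Figure D1:**
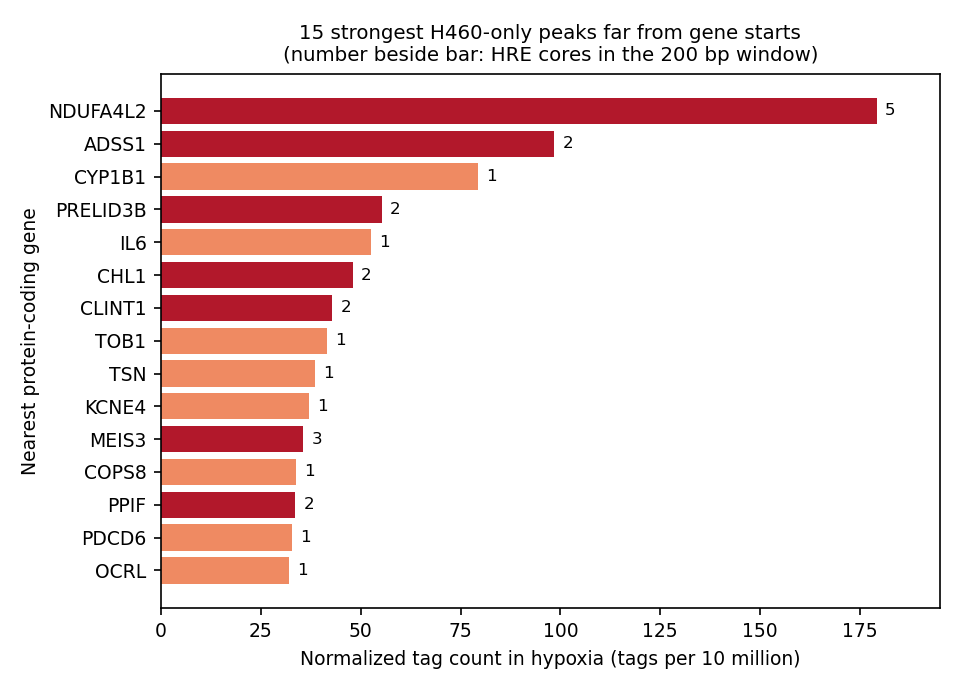
Normalized tag counts in hypoxia (x axis, tags per 10 M) of the 15 strongest members, named by the nearest protein-coding gene, with the number of HRE cores in the 200 bp window beside each bar (dark bars hold 2 or more). NDUFA4L2 stands at 179.3 with 5 cores, and the 15 end at OCRL with 32.1.

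Whether the members as a whole carry the DNA element bound by HIF1A was asked by counting the HRE core in a 200 bp window on the peak centre and in a flank window of equal length, 2000 bp to its lower-coordinate side. The core was present at 922 member centres (61.3%, 95% Wilson interval 58.9 to 63.8) and in 330 flanks (22.0%, 19.9 to 24.1). It was at the centre alone in 692 members and in the flank alone in 100 (exact McNemar test, two-sided, Benjamini-Hochberg adjusted over 13 motifs, p = 1.36e-108). A control core with A in place of T (ACGAG or GCGAG) was in 21.8% of centres and 17.0% of flanks (exact McNemar test, adjusted p = 0.00112). Over all 3877 H460 hypoxia peaks the share with the HRE core was 76.9%.

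Where present, the core sat close to the summit. The core nearest to the centre was a median of 21 bp away, and 531 of the 922 (57.6%) lay within 25 bp, against a median of 47 bp and 27.6% in flank windows that held one. Its bases differed from those in the flanks as well: 64.9% of nearest cores began with A (ACGTG) at the centre and 37.9% in the flank, 36.2% against 17.9% were followed by C, and 45.7% against 19.7% were preceded by T. A count of 1 core was found in 597 members, 216 had 2, and 109 had 3 or more. The letters CACGTG, present in 68 members, hold a core on either strand and counted as 2. SBNO2, a transcriptional coregulator of the inflammatory response, had a count of 7, CACGTG included, with only 7.48 tags per 10 M. TNS4, a focal adhesion protein, had 6 with 31.7, so the number of cores did not order the tag counts. The median tag count was 4.25 in members without a core, 6.07 with 1 core and 6.27 with 2.

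**Figure D2:**
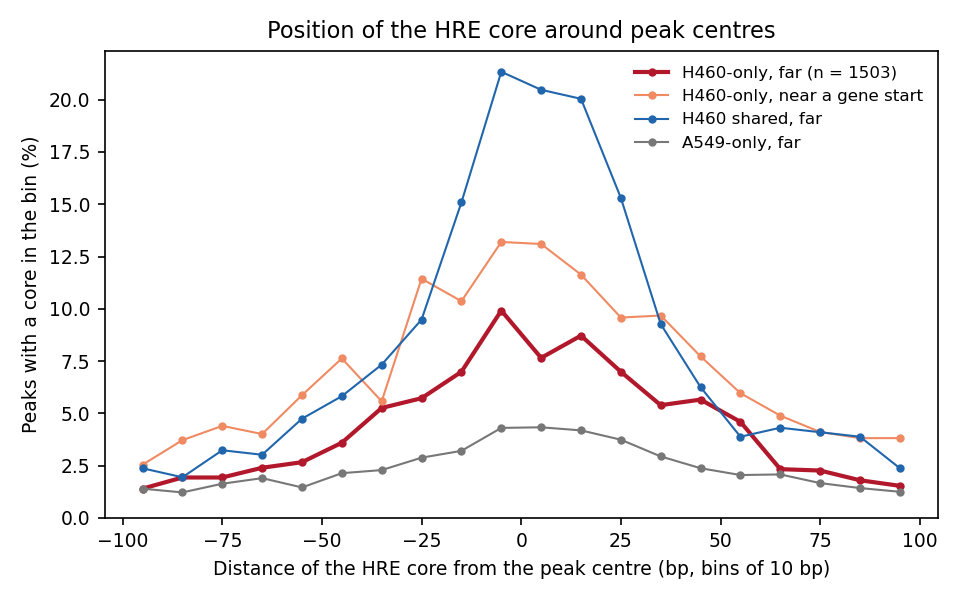
Share of peaks with an HRE core (y axis, %) by distance of the core from the peak centre (x axis, bp, bins of 10 bp) for the members and 3 other classes of peaks. In every class the share is highest near the centre, and the members run between the A549-only far peaks and the H460 far peaks of shared regions there.

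The core was less common in members than in the other H460 peaks tested. It was in 829 of the 1023 H460-only peaks near a gene start (81.0%), a difference of -19.7 points (95% Newcombe interval -23.1 to -16.2, Fisher's exact test, two-sided, adjusted p = 9.21e-27). Among the 464 far peaks of shared regions it was in 426 (91.8%), a difference of -30.5 points (-33.8 to -26.7, Fisher's exact test, adjusted p = 8.64e-41). Base composition moved with both of these. Median GC was 65.5% in peaks near gene starts and 56.25% in far peaks of shared regions, against 47% in members. The control core was in 56.0% of peaks near gene starts and 33.2% of far peaks of shared regions, against 21.8% of members. The part of base composition in either difference was not tested.

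Peak strength moved with the core as well. When the H460 hypoxia list was cut into quartiles by tag count, the share among members was 43.8% in the weakest quartile (n = 557), 61.7% in the next (n = 433), 73.7% in the third (n = 338) and 92.6% in the strongest (n = 175), while their flanks stayed between 20.3% and 25.1%. In the strongest quartile the members were at -1.03 points from the far peaks of shared regions (93.6%, n = 250, interval of the difference -6.46 to 3.79, Fisher's exact test, adjusted p = 0.699) and at -3.69 points from the H460-only peaks near gene starts (96.3%, n = 107, -9.06 to 2.58, adjusted p = 0.606). In each of the 3 weaker quartiles the members were below both classes at an adjusted p under the threshold of 0.05. Members without an input tag, which had a median of 4.04 tags per 10 M, held the core in 54.6% of cases, and the other members, with a median of 7.08, in 70.6%. A member with an input tag needs more tags to reach the required fold of 14, so weak members tend to lack an input tag. This split is thus not separate from strength.

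**Figure D3:**
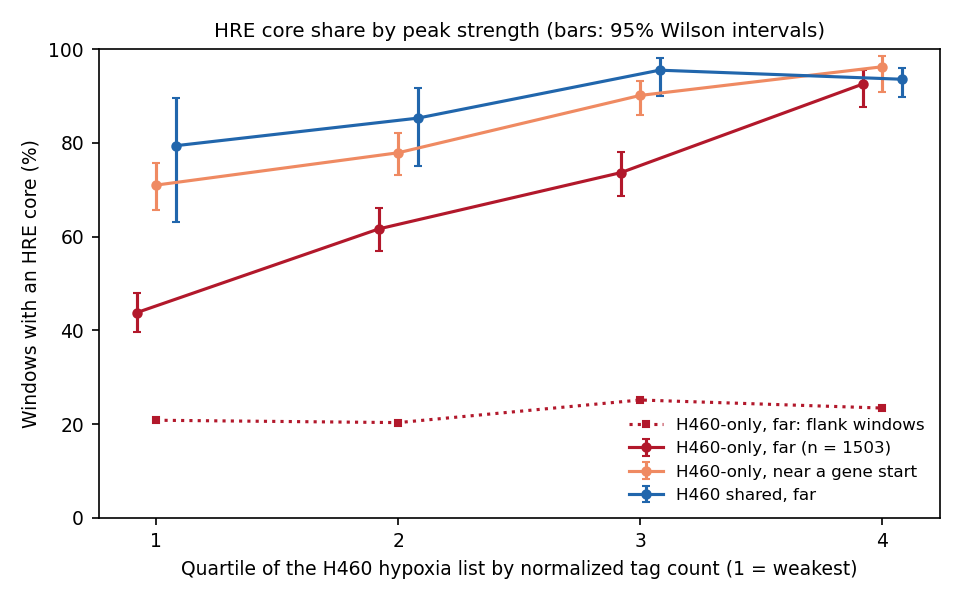
Share of 200 bp windows with an HRE core (y axis, %) by quartile of the H460 hypoxia list (x axis, 1 is the weakest), with 95% Wilson intervals. The members rise from 43.8% to 92.6% and meet the other 2 classes in the strongest quartile, while their flank windows (dotted line) lie between 20.3% and 25.1%.

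A549 is the other lung line, and its line-only far peaks held the core in 1221 of 3371 cases (36.2%), 25.1 points below the members (interval 22.1 to 28.0, Fisher's exact test, adjusted p = 2.50e-59). That gap depended on strength. Below 4 tags per 10 M the shares were 39.7% of members and 25% of 2248 A549-only peaks, and from 4 to under 6 tags they were 59.9% and 44.7% (Fisher's exact test, adjusted p = 1.24e-08 and 1.08e-06). From 6 to under 10 tags they were 69.9% and 72.9%, with a difference of -3.02 points (-9.91 to 4.03). At 10 tags or more they were 86.5% and 83.4%, with a difference of 3.04 points (-3.55 to 9.90, Fisher's exact test, adjusted p = 0.432 for both). These 4 ranges were chosen after the data were seen, and tags per 10 M of 2 libraries are comparable in depth and not in immunoprecipitation efficiency.

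Besides the HRE, AP-1 had the largest gain over the flank, in percentage points, among the other 11 factor motifs. TGACTCA was in 215 members (14.3%, 12.6 to 16.2) and in 53 flanks (3.53%, 2.71 to 4.58, exact McNemar test, adjusted p = 9.50e-25), and in 10.4% of all H460 hypoxia peaks. The share was 3.91% in the H460-only peaks near gene starts (Fisher's exact test, adjusted p = 4.40e-18) and 24.1% in the far peaks of shared regions (adjusted p = 4.29e-06), so members lay between them. Against the A549-only far peaks (13.3%) the difference was 0.956 points (-1.10 to 3.12, Fisher's exact test, adjusted p = 0.393). Members with an HRE core and members without one had the AP-1 motif in 14.1% and 14.6% of windows. The strongest members that held it were the PRELID3B and COPS8 peaks printed above, followed by peaks nearest to TNRC6C (27.3), TUBD1 (24.9) and TMEM51 (24.1), and one 46305 bp from EOMES, a T-box factor of endoderm, at 23.9, all with an HRE core in the same window.

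The forkhead motif TGTTTAC was in 96 members (6.39%) and 45 flanks (2.99%, exact McNemar test, adjusted p = 2.50e-05), and in 3.77% of all H460 hypoxia peaks. It was more common in members than in A549-only far peaks (3.80%, difference 2.59 points, 1.26 to 4.07, Fisher's exact test, adjusted p = 0.00023, and 1.57 points with adjusted p = 0.108 among peaks of 6-fold or more over the local region) and in H460-only peaks near gene starts (2.05%, adjusted p = 4.35e-07). The difference from the far peaks of shared regions (3.88%) was 2.51 points (0.0629 to 4.46, Fisher's exact test, adjusted p = 0.0788). A window with an HRE core held it in 5.42% of members, and a window without one in 7.92%.

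Other motifs were also more common at member centres than in their flanks, each by fewer points than AP-1 (exact McNemar test, adjusted p of 0.00249 or lower for each of the next 6). TEAD (GGAATG), bound by the effectors of Hippo signalling, was in 16.4% against 10.8%, CEBP (TTGCNNAA) in 13.6% against 9.12%, the NRF2 element ARE (TGACNNNGC) in 9.91% against 6.05%, SP/KLF (CCCGCCC) in 7.32% against 1.26%, ETS (CCGGAAG) in 2.13% against 0.732% and the E-box CACGTG in 4.52% against 1.73%. The E-box contains an HRE core on both strands and is no separate evidence. An AP-1 match that is followed by the letters GC is also an ARE match, so these 2 motifs are not separate either. The part of AP-1 matches in the ARE difference was not tested. The motif of GATA factors, AGATAA, was lower at the centre (9.51% against 12.2%), as was CCAAT, bound by NFY (21.1% against 24.8%, exact McNemar test, adjusted p = 0.0209 for each). RUNX (TGTGGTT) was at 3.93% and 3.33% (exact McNemar test, adjusted p = 0.431). All H460 hypoxia peaks held TEAD in 11.8%, CEBP in 9.18%, ARE in 11.3%, SP/KLF in 23.8%, ETS in 5.88%, E-box in 8.02%, GATA in 6.27%, NFY in 18.9% and RUNX in 2.99% of centre windows. A match says that the letters are there, not that the factor was bound. Median GC was 47% at member centres and 43.5% in their flanks. The part of base composition in the motif differences, from flanks or from other classes, was not tested.

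**Figure D4:**
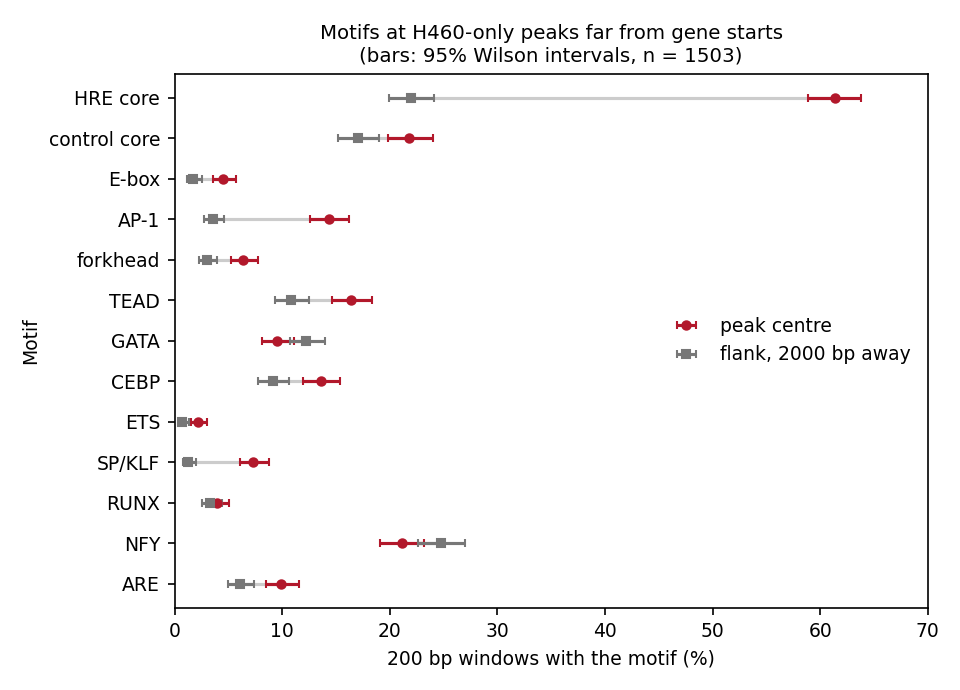
Share of the 1503 member windows with each of 13 motifs (x axis, %) at the peak centre (circles) and in the flank 2000 bp away (squares), with 95% Wilson intervals. The HRE core is at 61.3% against 22.0% and AP-1 at 14.3% against 3.53%, and GATA and NFY lie to the left of their flank values.

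A set of the members shared one sequence. The 200 bp centre windows were compared with each other by BLAST, and windows aligned over 100 bp or more at 75% identity or more were joined into groups. This search was made after the values were seen, so its groups are described without a test, and no repeat annotation was used. Of the 1503 windows, 98 resembled another member's, 66 of them in 1 group of 35 and 1 group of 31. The same search on the flank windows gave 1 group of 254 and no other above 6. The group of 35 was weak, with a median of 3.84 tags per 10 M, a maximum of 13.3 and an HRE core in 22 (62.9%).

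The group of 31 was strong. Its members, on 15 chromosomes, had a median of 10.7 tags per 10 M against 5.26 in the 1437 members of neither group, and 16 of the 31 reached 10. They included the CYP1B1 peak (79.3) and the STEAP1B intron peak upstream of IL6 (52.6), and 8 of the 50 strongest members. Next came peaks nearest to P3H2, a collagen prolyl hydroxylase (28.7), DMRTB1 (25.9), KRTAP5-7 (25.3, in exon sequence of NADSYN1 that is not coding), ALOX15B, a lipoxygenase (24.7), OTOL1 (24.5) and RAP2B (23.5). An HRE core was present in 29 of the 31 (93.5%), as exactly 1 copy in 27. These windows were joined because they share sequence, so they are not independent of each other and no interval is given. Of the 31, 10 lay inside a protein-coding gene, and 13 were over 100 kb from the nearest protein-coding gene start. The shares of all members on these measures were not computed, so the counts describe the group alone.

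**Figure D5:**
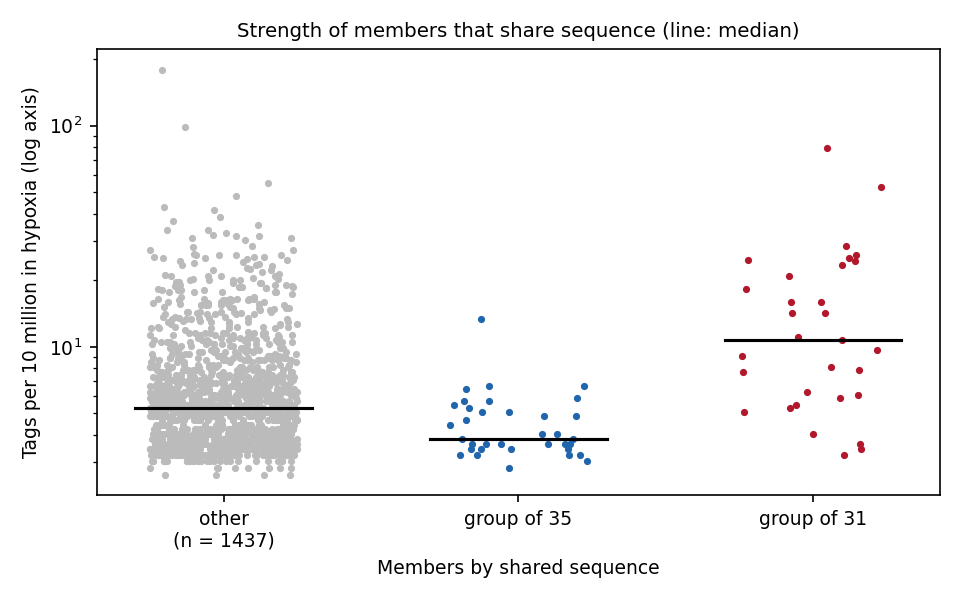
Normalized tag counts in hypoxia (y axis, log scale, tags per 10 M) of the members in the group of 35, the group of 31 and neither (x axis), with 1 point per member. Lines mark the medians, at 3.84, 10.7 and 5.26, and the group of 31 has the highest median, while the 2 strongest members belong to neither group.

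Most members lay inside genes but outside exons. Introns held 861 centres (57.3%), intergenic DNA 486 (32.3%), exon sequence that is not coding 121 (8.05%) and coding exons 35 (2.33%). Non-coding exon sequence was less common than in the far peaks of shared regions (12.3%, difference -4.23 points, -7.77 to -1.17, Fisher's exact test, adjusted p = 0.0285). That call was lost under 6 of the other settings, such as gene starts taken from every transcript (-1.17 points, Fisher's exact test, adjusted p = 0.413). The intron share was 2.11 points higher (-3.01 to 7.29) and the intergenic share 2.38 points higher (-2.52 to 7.04), with a Fisher's exact test adjusted p of 0.563 for each, and the coding share differed by -0.258 points (adjusted p = 0.73). The median distance to the nearest gene start was 26204 bp. By distance, 348 members (23.2%) lay within 10 kb of a gene start, 730 (48.6%) between 10 and 50 kb, 253 (16.8%) between 50 and 100 kb and 172 (11.4%) beyond. A start of some annotated transcript lay within 2500 bp of 272 members (18.1%), and these held the HRE core in 68.0% of cases against 59.9% of the rest.

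At the distance limit itself, the members nearest outside it were peaks 2506, 2522 and 2550 bp from a gene start, in the regions of CHMP1B, DGKD and PPP1R3B, with 4.65, 5.05 and 5.05 tags per 10 M. The H460-only peaks nearest inside it lay 2448, 2445 and 2438 bp from the start of a gene, with 4.65, 3.44 and 5.66. Peaks on the 2 sides of the limit thus had overlapping tag counts.

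Most members stood alone. Joined at gaps of 50 kb or less they formed 1294 groups, of which 1134 were single peaks, while 369 members (24.6%) had a neighbour. The densest groups held 5 members. One ran over 73.2 kb (chr12:8069699-8142876) from SLC2A14 into SLC2A3, the glucose transporters GLUT14 and GLUT3, with 6.27, 4.85, 4.85, 16 and 17.6 tags per 10 M in genomic order and 1 further H460 peak among them. The other, of 97.3 kb (chr21:44739300-44836643) at SIK1, a salt-inducible kinase, had 4.04, 5.66, 6.27, 3.64 and 3.44, all of them weak. In 18.8 kb of CYP1B1, 4 members had 12.7, 16, 79.3 and 25.9, each with a core, and 2 of them belong to the group of 31. A further group of 4 lay in IGF1R (4.85 to 11.3), the receptor of insulin-like growth factor 1.

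Normoxia peaks seldom lay at members. The H460 normoxia list overlapped 18 of them (1.20%, Wilson 0.759 to 1.89), where 1.16% of all H460 hypoxia peaks were overlapped, and the share among far peaks of shared regions was 4 of 464 (0.862%, difference 0.336 points, -1.07 to 1.20, Fisher's exact test, p = 0.8). A549 normoxia peaks overlapped 6 members, RKO 3 and HCT116 1. No input tag lay beneath 98.8% of the H460 normoxia peaks, against 20.7% to 45.6% of peaks in the other lists, and the part of this in the overlap was not tested.

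The CYP1B1 peak had 79.3 tags per 10 M in hypoxia and 8.07 in normoxia. PRELID3B had 55.2 and 3.57, the P3H2 peak 28.7 and 6.76, and a peak nearest to RASSF8, a RAS-association domain protein, 23.1 and 3. The fifth, nearest to the insulin receptor adaptor IRS2, had 10.7 and 3.75 and no HRE core. The tag count in hypoxia was higher at all 18, by a median of 2.28-fold and a range of 1.14 to 15.5. Peaks of the H460 hypoxia list were wider than those of the H460 normoxia list, and the counts were not adjusted for width. The part of peak width in these ratios was not tested, so the lowest of them do not show a higher tag density. The other 13 had normoxia values of 2.44 to 3.57, where the list itself begins at 2.44. A core was present in 4 of the 5 members at 10 tags or more and in 3 of the 13 below, while 11 of the 18 had none.

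The rule left out H460 peaks that overlapped a hypoxia peak of another line, so the distances to such peaks are a description only. They were not measured for other classes of peaks. A hypoxia peak of another line lay within 1 kb of the centre in 53 members (3.53%), of which A549 gave 32, HCT116 17 and RKO 14. For 1206 members (80.2%) every hypoxia peak of the other lines was more than 10 kb away, and the median distance was 41925 bp.

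A member lay within 50 kb of the start of 13 of 64 listed hypoxia targets (20.3%), beside 6.59% of all protein-coding genes. The list was compiled with earlier results of these data known, and the shares are given without a test. At 11 of the 13 an H460 hypoxia peak also sat at the start of the gene record. The share of all genes with such a start peak is not given here, so the count describes these 13 alone. The 2 without a peak at that start were SLC2A3 and SLC16A3, the lactate exporter MCT4. SLC2A3 had 17.6 tags per 10 M at its strongest member, in an intron 28800 bp from that start. SLC16A3 had 9.91, in an intron 23839 bp from its start. Starts of their other transcripts were not examined, and 1 further H460 peak lay among the members from SLC2A14 into SLC2A3. DDIT4, an inhibitor of mTORC1, had a member of 13.5 located 29959 bp upstream beside a peak of 28.5 at its start that all 4 lines shared. BHLHE40, a transcriptional repressor, had one of 10.9 at 37302 bp beside a start peak of 42.1.

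The other hypoxia targets had weaker members. BNIP3, a mitophagy receptor, had 8.69 at 15943 bp upstream, against 96 at its start, and the glycolytic enzyme ENO2 had 6.27 in an intron of ATN1. VEGFA, the angiogenic growth factor, had 5.46 at 28844 bp downstream of its start, with 3 HRE cores and 2 AP-1 motifs in that window, and 6.47 at the start. MXI1, an antagonist of MYC, had 5.05 in an intron with 10.1 at its start, and STC2, a secreted glycoprotein, had 4.85 against 52.8. LDHA (lactate dehydrogenase A) had 4.25 against 58.6, P4HA2 (collagen prolyl hydroxylase) 3.64 against 6.67 and CA12 (carbonic anhydrase) 3.24 against 3.44. Apart from NDUFA4L2, the member was weaker than the peak at the start wherever DDIT4, BHLHE40, BNIP3, ENO2, VEGFA, MXI1, STC2, LDHA, P4HA2 and CA12 had both. Among the 13 targets, the strongest member held an HRE core at 10 and none at BHLHE40, LDHA and CA12. The core was in 61.3% of all members.

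The other lists gave small counts beside the same 6.59%. NRF2 targets had 2 of 26 (7.69%): the export pump ABCC2 (3.84) and the cystine transporter SLC7A11 (3.44), neither with an HRE core. AP-1 subunits and partners had 2 of 15 (13.3%), the stress-induced ATF3 (15.6, in an exon of its gene 43430 bp from the start) and MAFK (15, located 9799 bp upstream), each with a core. Hippo-TEAD genes had 3 of 19 (15.8%): AMOTL2 (12.3), NF2 (5.05) and CCN2 (3.84). Receptor tyrosine kinase and MAPK genes had 4 of 26 (15.4%), namely the receptor MET (12.1, intronic, window printed above), the ETS factor ETV4 (7.48), the phosphatase DUSP4 (4.04) and EGFR (3.84). Endoderm and lung transcription factors had 1 of 21 (4.76%), SOX4 at 6.07, and TGF-beta and matrix genes 1 of 34 (2.94%), FN1 (fibronectin) at 4.85. An H460 peak also sat at the start of MET (5.26), CCN2 (3.44) and FN1 (10.7), so the member was the stronger at MET and CCN2 and the weaker at FN1. No test was run on these lists, and most of them held fewer than 4 genes with a member.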

How the data were processed

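HIF1A ChIP-seq was done in 4 cancer cell lines, each with 2 libraries for either condition and 1 input. The authors aligned reads to GRCh37 (hg19) with Bowtie2 (2.2.9), kept alignments with a mapping quality above 10, marked duplicates, merged the replicates and called peaks with HOMER (4.3). The submitters' processing notes also name SAMtools 1.3.1, Picard 1.129 and FastQC 0.11.5. The calls used a fold over input of 6 to 14 set per line, a fold of 3 over the surrounding 10000 bp and a false discovery rate of 0.001. The merged libraries held 41.2 M to 81.5 M tags, which sets the counting error of a weak peak. Per the file headers, the deposited signal is the tag count of a peak scaled to a library of 10 M tags (M for 1000000). The deposited fold ratios compare a peak with input and with its local region, and an input without a tag is entered as 0.5. The 4 hypoxia and 4 normoxia lists were used, and groups came from the sample titles.

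Peaks of the hypoxia lists that overlapped by 1 bp or more were joined into regions. Gene starts were taken from GENCODE release 44 on GRCh37 (38865 lncRNA or protein-coding genes), and a coordinate is 1-based. Motifs were searched on both strands of 200 bp windows. Shares have 95% Wilson intervals and differences Newcombe intervals, which cover counting error only. Tests were exact (McNemar, Fisher, two-sided) with Benjamini-Hochberg adjustment at 0.05, over 13 motifs against the flank, over 3 comparisons for the HRE core, over 36 for the other motifs and over 4 annotation classes. Windows were compared with each other by BLAST+ 2.17.0. Python 3.11.15, scipy 1.17.1, pandas 2.3.3 and pysam 0.24.0 were used, and the tests were run on simulated data first. Alternatives changed the fold thresholds, overlap, gene starts, input tags, neighbouring peaks, the lists, the window and the flank.

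Named members were the 15 strongest, up to 4 genes per list with the strongest member within 50 kb, the 3 nearest on each side of the distance limit, the 5 densest groups (1 is not reported here), the 3 with most HRE cores and the 5 strongest called in H460 normoxia. Beyond 4 hypoxia targets, the rest of the 13 were named after their values were seen, as were the members without an HRE core, the strongest with AP-1 and the group that shares sequence. Members and lists were chosen with earlier results of these data known.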

Additional observations from a re-analysis of the deposited data

Results flagged for a closer look

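Of 15 measures compared over the 4 classes of line-only far peaks (1 class per line), 1 was flagged, with H460 as the outlying line. Peaks without an input tag made up 58.1% of the H460-only far peaks, against 33.0% in HCT116, 32.9% in A549 and 28.5% in RKO. The value was picked out because its gap to the nearest line, divided by the range over the 4 lines, was 0.848, above Dixon's 95% critical value for 4 values. Chance alone passes it in about 1 of 20 groups, so 1 flag among 15 measures is near the chance rate. The HRE core share, the highest of the 4 in H460 (61.3%, against 43.1% in HCT116, 36.2% in A549 and 17.5% in RKO), had a ratio of 0.427, under that critical value. The lists were called at different folds over input, and the part of this in either measure was not tested.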

How the results depend on the processing

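No paired analysis was possible because the replicates were merged before peak calling, and for the same reason no replicate could be left out. Of 240 recomputed values, 210 kept their direction and their side of the threshold, or stayed within 1.5 times for a count. The HRE core share at member centres did so under all 17 alternatives (43.8% to 92.6%). There were 991 members at a local fold of 6 or more, 630 with an input tag and up to 1667 otherwise. The input tag setting filtered the members and left the classes they are compared with whole. It was also a cut on strength, as the members it took out had a median of 4.04 tags per 10 M and those kept 7.08. Against other classes the HRE difference failed the threshold only in the strongest quartile (-3.69 and -1.03 points) and, against A549-only far peaks, at 6 to under 10 tags (-3.02, reversed) and at 10 or more (3.04, both chosen after seeing the data).

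The non-coding exon difference failed at a fold over input of 14 (-2.36 points) or 20 (-2.12) in every list, with every transcript start (-1.17), with input tags (-4.51) and without the HCT116 (-3.35) or RKO (-3.60) list. The coding exon difference, never called, turned to 0.107 at a local fold of 6 and 0.112 with input tags, and the intergenic one to -3.44 with every transcript start. The normoxia difference turned to -0.18 at a local fold of 6 and -0.581 at a fold over input of 20, never past the threshold. AP-1 against A549-only far peaks was -1.28 points at a local fold of 6 and passed with input tags (3.95). Forkhead against A549-only far peaks failed at a local fold of 6 (1.57), and against shared far peaks it passed with peaks joined within 500 bp (2.91), with input tags (3.42) and without the A549 list (3.30).

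Within 25 kb the genes with a member were 8 hypoxia targets, 1 AP-1 subunit and 2 kinase genes, and within 100 kb 5 NRF2 targets, 5 endoderm factors, 4 matrix genes and 7 kinase genes, where all protein-coding genes went from 3.34% to 12.5%. No A549-only class exists without the A549 list, and quartiles of the H460 list do not apply to it. Leaving out the 66 members that share sequence, chosen after seeing the data, changed none of these calls. The median member rests on 26 tags, so weak members are the least certain.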

Other observations

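Among the 18 members that a H460 normoxia peak overlaps, 2 belong to the group of 31 that shares sequence, the CYP1B1 and P3H2 peaks.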
